A study of Homo sapiens with 3 samples.

Results

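The 10 genes of pre-mRNA splicing described here were followed across ribosome profiling of HEK293T cells: SRSF1, SRSF2, SRSF3, SRSF5, SRSF6, SRSF7, SRSF9, SRSF11, TRA2B and PNN. They are 10 of the 3796 genes that the 3 lists of ribosome peaks name. A peak is a stretch of the genome where sequenced ribosome footprints piled up past a fixed coverage, and each list gives positions without heights or read counts. Each peak went to the gene of the RefSeq transcript named in its annotation, or to the listed gene name where no transcript was matched, and intron peaks were kept. By this rule the members held 49 of 11219 peaks in vector, 82 of 19920 in wild-type DDX3X and 42 of 15680 in G325E.

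HEK293T is a human embryonic kidney line. Cells were transfected for 24 h with empty pCDNA3.1, with wild-type DDX3X or with the G325E mutant found in medulloblastoma, both proteins bearing a FLAG tag, and 1 library was made from each. DDX3X, an RNA helicase of the DEAD-box family, acts in translation initiation. All 3 groups kept their own DDX3X gene, to which the constructs were added. Per the labels, every culture also received harringtonine, which halts ribosomes soon after initiation, at 2 µg/ml for 90 s, and then 100 µg/ml of the elongation blocker cycloheximide. The study's methods name cycloheximide alone. With 1 library for each construct, no difference below has a replicate check and no test was run. In bulk lysates, fewer expressing cells, less mRNA per cell and fewer ribosomes per mRNA cannot be told apart. Intervals cover counting error only, since listed peaks are not independent molecules.

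SR proteins carry 1 or 2 RNA-recognition motifs and a domain rich in arginine and serine, the RS domain. They bind exons and recruit the spliceosome, and kinases of the SRPK and CLK families phosphorylate the RS domain. Pinin, the product of PNN, is an SR-related protein that sits with RNPS1 and SAP18 at exon junctions. Many SR genes hold an extra exon with an early stop codon, a poison exon, whose inclusion sends the transcript to nonsense-mediated decay (NMD), the pathway that removes mRNAs with early stops. That loop lets several SR proteins limit their own level.

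Some stretches carry the results below, and their sequences are given 5′ to 3′ on the gene strand, read from GRCh37, the genome build of the lists. The first lies in intron 3 of SRSF7, at chr2:38976294-38976315, and runs from the first base of an exon of the NMD transcript ENST00000415527 to the first in-frame stop. The next is the whole 33-base exon of SRSF11 at chr1:70712800-70712832, which the canonical transcript skips and ENST00000463859 includes. In both, capitals mark a 3-base wild-type peak. Intron 1 of SRSF1 at chr17:56084098-56084152 and of TRA2B at chr3:185655167-185655227 and chr3:185655311-185655334 follow, because peaks of more than 1 library met there. Capitals mark the bases shared by all libraries with a peak there, except in the first TRA2B stretch, where they mark the wild-type peak.
SRSF7 NMD exon: GGCagaaaatttgagacggtga
SRSF11 skipped exon: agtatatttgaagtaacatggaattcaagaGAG
SRSF1 intron 1: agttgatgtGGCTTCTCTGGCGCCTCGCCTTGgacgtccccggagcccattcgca
TRA2B intron 1, first stretch: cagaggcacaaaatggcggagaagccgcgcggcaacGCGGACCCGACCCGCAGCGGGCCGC
TRA2B intron 1, second stretch: GCTGCGTCCCCGCGGTGTTGGGGg

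The widest coding peaks of the 3 genes without any G325E peak are shown for their codons. They lie at chr6:36569486-36569554 in SRSF3 (codons 128 to 150), chr20:42089344-42089424 in SRSF6 (codons 226 to 252) and chr14:39650808-39650917 in PNN (codons 632 to 668), and all 3 are wild-type peaks. Capitals mark bases of arginine and serine codons, which made up 14 of 23, 17 of 27 and 19 of 37 codons.
SRSF3: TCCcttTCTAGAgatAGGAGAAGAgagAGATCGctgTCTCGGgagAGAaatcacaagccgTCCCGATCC
SRSF6: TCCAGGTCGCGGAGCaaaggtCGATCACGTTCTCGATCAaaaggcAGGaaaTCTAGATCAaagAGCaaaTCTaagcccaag
PNN: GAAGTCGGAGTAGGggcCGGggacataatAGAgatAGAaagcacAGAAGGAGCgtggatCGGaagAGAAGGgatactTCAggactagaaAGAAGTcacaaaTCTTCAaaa

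The members took a smaller share of the G325E list than of the others. The share was 0.437% for vector (95% Wilson interval 0.331 to 0.577%), 0.412% for wild-type DDX3X (0.332 to 0.511%) and 0.268% in G325E (0.198 to 0.362%). The G325E share was 0.651 times that of wild-type (95% interval 0.449 to 0.943) and 0.613 times that of vector (0.406 to 0.925), and the wild-type share was 0.943 times that of vector (0.662 to 1.34). The G325E list was also richer in G and C, with 73.1% GC in the 31 bases around its peaks against 62.7% in vector and 62.3% in wild-type. When peaks in GC classes of 10 percentage points were weighted to the same mix in each list, the shares became 0.403% for vector, 0.366% for wild-type and 0.370% for G325E. With the GC weighting, the log2 ratio of G325E to wild-type went from -0.62 to 0.019, and that of G325E to vector from -0.71 to -0.12. The lists also differ in their numbering, since 14.8% of the peak numbers up to the highest are missing from the vector list and 13.5% from wild-type, but 0% from G325E. The part of this in any share, zero or overlap below was not tested.

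**Figure D1:**
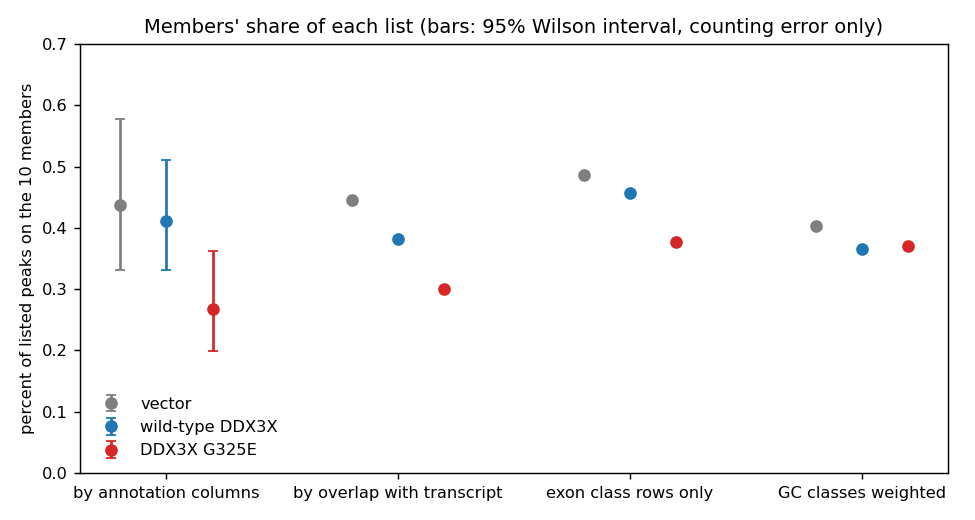
Percent of each list's peaks that lie on the 10 members (vertical axis), for vector, wild-type DDX3X and G325E under 4 ways of counting (horizontal axis). Points are shares, and bars on the leftmost set are 95% Wilson intervals that cover counting error only. G325E sits lowest at 0.268% by the annotation columns, and the 3 points lie between 0.366 and 0.403% once GC classes are weighted.

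All 10 members had a peak in the wild-type list, 8 had one in vector and 7 in G325E. The study reports the most mapped reads without duplicates for wild-type and the fewest for G325E. Scaling to list length does not undo unequal depth under a fixed coverage cut-off. The part of depth in any zero, wild-type-only peak or coverage here was not tested. Peak numbers in vector, wild-type and G325E were 9, 15 and 6 for SRSF1, 6, 10 and 9 for SRSF2, and 0, 5 and 0 for SRSF3. They were 6, 8 and 6 for SRSF5, 0, 7 and 0 for SRSF6, and 5, 10 and 4 for SRSF7. SRSF9 had 1, 1 and 2, SRSF11 10, 13 and 6, TRA2B 9, 6 and 9, and PNN 3, 7 and 0. Since the lists differ in length, numbers were scaled to peaks per 10000 listed peaks, on which scale the members ran from 0 to 8.91 for vector, 0.502 to 7.53 for wild-type and 0 to 5.74 for G325E.

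**Figure D2:**
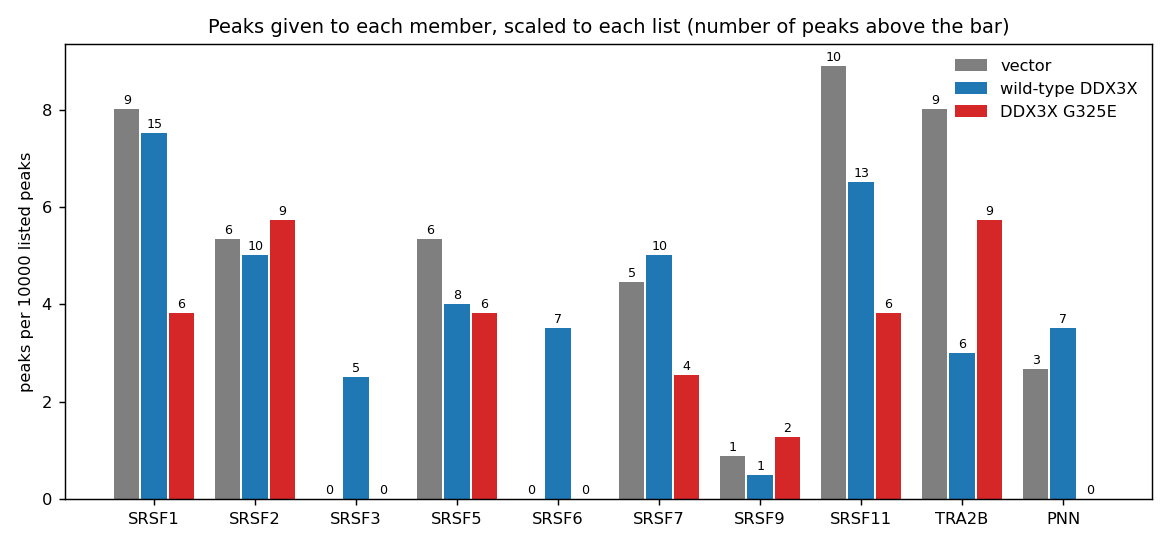
Peaks given to each of the 10 members per 10000 listed peaks (vertical axis, linear), with the peak number above each bar, in vector, wild-type DDX3X and G325E. SRSF3 and SRSF6 have bars only for wild-type, and PNN has none for G325E.

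Scaled numbers 2-fold or more apart were called for genes with at least 5 peaks over the pair of lists. From wild-type to G325E, 3 of 9 members had at least 2-fold fewer peaks (SRSF3, SRSF6 and PNN), beside 27.9% of all genes tested, and 0 of 9 had at least 2-fold more, beside 26.1%. The median ratio of G325E to wild-type was 0.508 over the 9 members and 1.09 over all genes tested. Against vector, 2 of 6 members had at least 2-fold fewer peaks in G325E (SRSF1 and SRSF11), beside 23.2% of genes, and 0 of 6 had more, beside 34.2%. The median ratio was 0.644 over those members and 0.984 over all genes. From vector to wild-type, 2 of 9 members had at least 2-fold more peaks (SRSF3 and SRSF6), beside 27.3% of genes, and 1 of 9 had fewer (TRA2B), beside 18%. Counts of 0 to 3 genes do not set the members apart from these backgrounds. With genes at 0 set to the floor of 3 peaks, the 3 calls from wild-type to G325E and the 2 of more peaks from vector to wild-type were lost. Scaling by the median ratio of the genes instead of list totals lost the calls of SRSF1 and SRSF11 against vector and that of TRA2B. From wild-type to G325E it called 6 of 9 members fewer, adding SRSF1, SRSF7 and SRSF11, beside 33.5% of genes. Leaving intron peaks out lost the TRA2B call, and from wild-type to G325E it called 4 of 9 fewer, adding SRSF1, beside 27.4%. Counting by position lost the call of SRSF1 against vector, and the calls it added from wild-type to G325E are given below.

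Among members with 2 RNA-recognition motifs, SRSF1 (chr17:56078280-56084607, minus strand) regulates splice-site choice and is an oncogene. It had 8.02 peaks per 10000 for vector, 7.53 for wild-type and 3.83 for G325E, a ratio of G325E to wild-type of 0.508 (0.197 to 1.31). Peaks covered 46.0% of its 248 codons' bases for vector, 57.0% for wild-type and 30.4% for G325E. In G325E all 5 coding peaks lay between codons 6 and 107, whereas vector and wild-type also had a peak over codons 206 to 240 and 207 to 240. Near the SRSF1 start, vector and wild-type each had a peak from base 7 of the transcript and another whose near edge lay 176 bases before it, and the first G325E peak began at base 126. Wild-type had 3 further peaks between codons 137 and 191, where neither of the other lists had one.

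SRSF5 (chr14:70233859-70238722, plus strand), also known as SRp40, had 5.35, 4.02 and 3.83 peaks per 10000 in vector, wild-type and G325E. Every list had peaks that touched codons 177 to 184, 185 to 189, 211 to 228, 234 to 242 and 257 to 264 of its 272 codons. Away from these places, on the gene strand, vector had a peak at codons 123 to 126 and wild-type 1 at codons 166 to 175. Coding coverage was 26.0%, 28.3% and 20.5%. The lists give the SRSF5 peaks the gene name LOC100289511, and their RefSeq transcript places them on SRSF5.

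SRSF6 (chr20:42086536-42092883, plus strand), another SR protein with a known poison exon, had 0 peaks in vector and G325E and 7 in wild-type. The 7 peaks ran from codon 130 to codon 264 of 344 and covered 26.2% of the coding bases. A count of 0 allows up to 2.67 peaks per 10000 in vector and 1.91 in G325E, against 3.51 in wild-type. With the 7 wild-type peaks taken as exact, the scaled SRSF6 number in wild-type was at least 1.31 times that of vector. On the same terms, G325E was at most 0.544 times wild-type. The counting error of the wild-type peaks is not in these limits, so they are not firm bounds. SRSF9 (chr12:120899475-120907551, minus strand) is described below with its neighbour.

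Among members with 1 RNA-recognition motif, SRSF3 (chr6:36562139-36573377, plus strand), the smallest SR protein, had 0 peaks in vector and G325E and 5 in wild-type. All 5 lay between codon 115 and its last codon, 164, and covered 25.4% of the coding bases. At 2.51 peaks per 10000, the wild-type number was under the 2.67 that a count of 0 allows in vector, so a difference from vector was not detectable. With the 5 wild-type peaks taken as exact, the scaled number in G325E was at most 0.762 times that of wild-type. The lists class these 5 peaks as non-coding, after a non-coding RefSeq transcript, although they lie in the coding sequence of the canonical transcript.

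SRSF7 (chr2:38970741-38978503, minus strand), which has a zinc knuckle beside its RNA-recognition motif, had 4.46, 5.02 and 2.55 peaks per 10000 in vector, wild-type and G325E. The ratio of G325E to wild-type was 0.508 (0.159 to 1.62). Vector and G325E peaks covered 11.8% and 12.04% of the coding bases and lay between codons 129 and 191. Wild-type peaks covered 36.3% and reached from codon 52 to the same codon 191. The 5 wild-type peaks before codon 129 lay where the other lists had no peak.

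SRSF11 (chr1:70687063-70718735, plus strand), an SR-related protein, had its G325E peaks nearer the start codon than the others. It had 8.91, 6.53 and 3.83 peaks per 10000 in vector, wild-type and G325E, and the ratio of G325E to vector was 0.429 (0.156 to 1.18). In G325E, peaks covered codons 1 to 20, 25 to 37 and 57 to 58 in the first exon, then codons 342 to 354 and 371 to 373. Vector and wild-type had no peak on codons 1 to 56, though wild-type had 2 in the 5′-UTR and vector 1 lying 57 bases upstream of the transcript. Both had a nearly unbroken run from codon 268 to codon 354 and further peaks up to codons 453 and 475. The mean coding position, counted from 0 at the start to 1 at the end, was 0.629 for vector, 0.688 for wild-type and 0.335 for G325E. GC content around the SRSF11 peaks was 50.6%, 51.9% and 61.8% in the same order, and its part in the shift was not tested.

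PNN (chr14:39644458-39652424, plus strand) had 3 peaks for vector, 7 for wild-type and 0 for G325E. The 3 vector peaks covered codons 85 to 105, 117 to 128 and 134 to 141, and wild-type had a peak at each of these places. Its outer pair, at codons 85 to 105 and 134 to 141, had the same edges in both lists. Wild-type added 4 peaks between codons 510 and 717. Coding coverage was 5.39% in vector and 17.1% in wild-type. With the 7 wild-type peaks taken as exact, G325E was at most 0.544 times wild-type in scaled number. The 3 vector peaks do not exceed the floor, so no fold is given between vector and G325E.

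**Figure D3:**
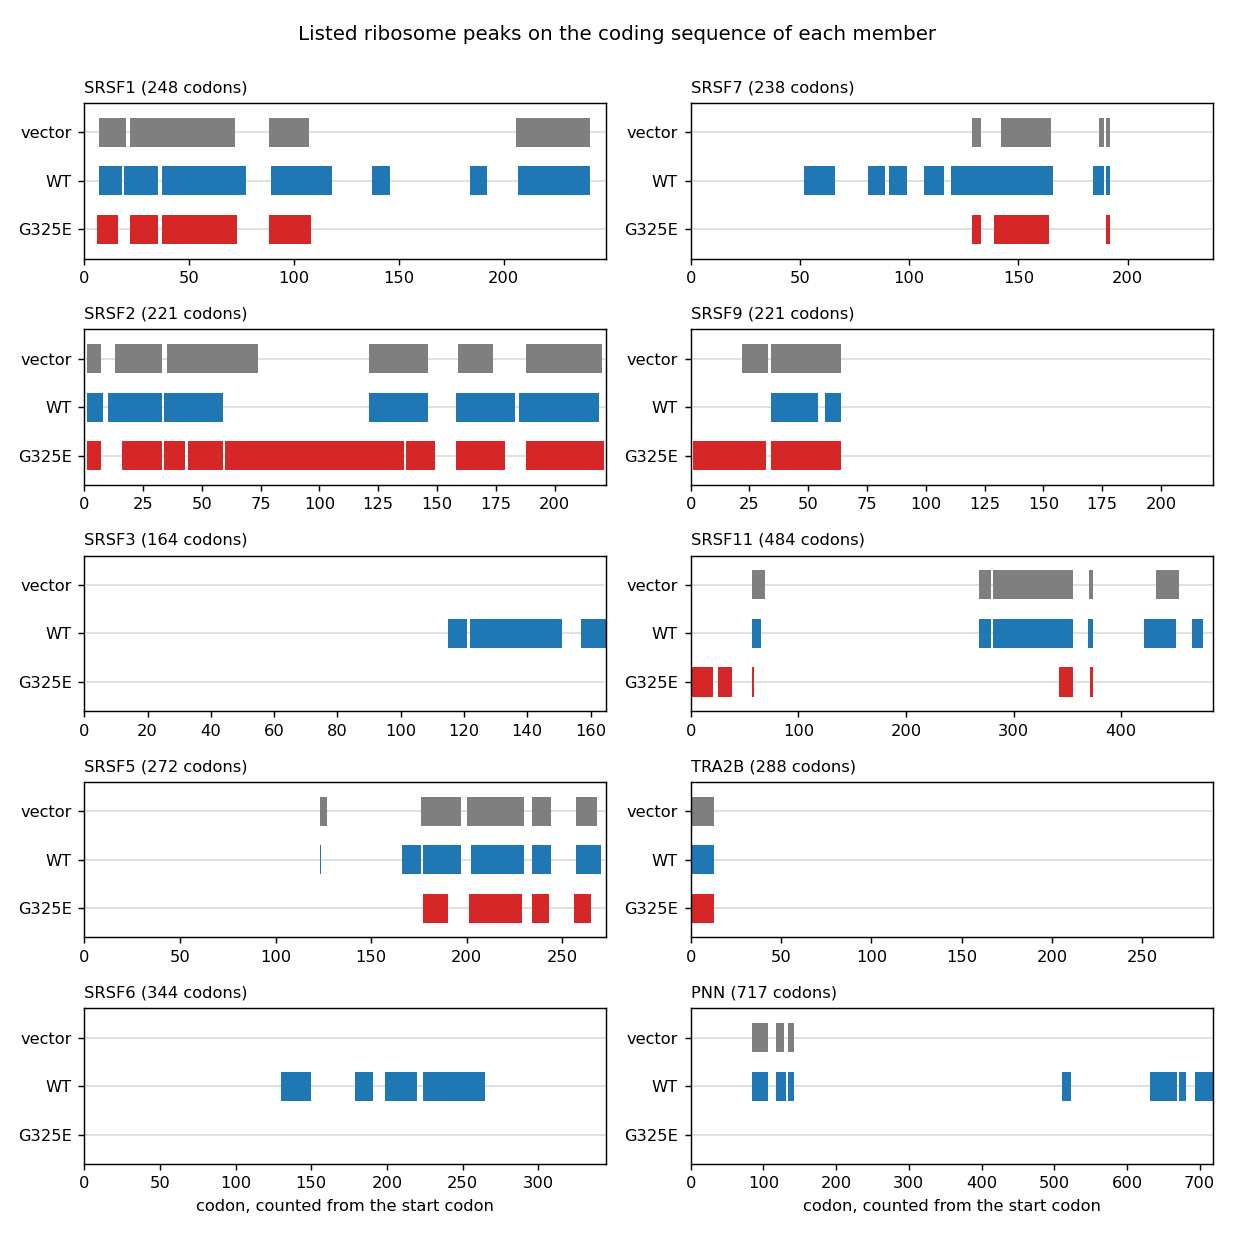
Peaks along the coding sequence of the canonical transcript of each member, with the codon number from the start codon on the horizontal axis and 1 row for each library. Bars are stretches under a peak on either strand, SRSF2 and SRSF9 peaks being placed by position. SRSF11 bars of G325E begin at codon 1, SRSF1 bars of G325E stop at codon 107, and TRA2B bars cover codons 1 to 12 alone.

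The range of coding GC content set by SRSF3, SRSF6 and PNN also held members with G325E peaks. Of 9 members with at least 5 wild-type peaks, 3 had none in G325E (SRSF3, SRSF6 and PNN), beside 31.9% of all such genes, and 2 had none in vector (SRSF3 and SRSF6), beside 29.8%. Coding GC content was 45.5% in PNN, 50.2% in SRSF3 and 51.6% in SRSF6. The 4 other members in that range, SRSF5 (47.1%), SRSF11 (47.7%), SRSF7 (48.7%) and TRA2B (49.8%), had 4 to 9 G325E peaks. Around those peaks GC content averaged 55.9%, 61.8%, 49.2% and 66.3% in the same order. By position 1 of the 9 TRA2B peaks was classed as coding, so coding GC content does not describe where they lie. The part of GC content in the zeros was not tested. Of all 279 genes in the range with at least 5 wild-type peaks, 38.4% had no G325E peak. Vector peaks were absent from 31.2% of the same genes.

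SRSF2 and SRSF9 share their start regions with divergent neighbours, and here the annotation and the position of a peak differ. SRSF2 (chr17:74730197-74733413, minus strand), which binds purine- and pyrimidine-rich exonic sites alike, starts beside MFSD11. All of its 6, 10 and 9 peaks by annotation lay upstream of the canonical transcript on its own strand, with near edges 76 to 854 bases before its start. Peaks on the transcript itself carried the name MFSD11 although they lay on the SRSF2 strand, and there were 10 for vector, 7 for wild-type and 12 for G325E. Scaled, these were 8.91, 3.51 and 7.65 per 10000, a ratio of G325E to wild-type of 2.18 (0.857 to 5.53), with wild-type at 0.394 times vector (0.150 to 1.04).

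By position SRSF2 had the highest coding coverage of the 10 members in each list, with 60.2% for vector, 61.4% for wild-type and 83.6% for G325E. A 182-base G325E peak filled codons 60 to 121, where vector had peaks up to codon 73 and at codon 121 and wild-type only at codon 121. Coding GC content was 66.8%, also the highest of the members. In the intron after the first coding exon, vector had 2 peaks, G325E 3 and wild-type 0, from 16 to 308 bases past the exon edge.

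SRSF9, an SR protein with a short RS domain, starts beside DYNLL1, which encodes a dynein light chain. By annotation it had 1, 1 and 2 peaks in vector, wild-type and G325E, all upstream of the canonical transcript, and 3 of these 4 lay on the opposite strand. By position the SRSF9 transcript had 2, 2 and 5 peaks, all named DYNLL1 in the lists and all on the SRSF9 strand. The ratio of G325E to wild-type was 3.18 (0.616 to 16.4). Coding peaks kept to codons 22 to 63 for vector, 34 to 63 for wild-type and 1 to 63 for G325E, which is the first exon, and none lay in the later 3 exons. G325E alone had a 167-base peak from the 5′-UTR into the first codons and 2 intron peaks, 112 and 263 bases past the exon edge.

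Counted by position for all members, the lists held 50, 76 and 47 peaks, or 0.446% (0.338 to 0.587%), 0.382% (0.305 to 0.477%) and 0.300% (0.226 to 0.398%). From wild-type to G325E, 3 of 10 members then had at least 2-fold more peaks (SRSF2, SRSF9 and TRA2B), beside 23.8% of all genes counted by position, and 3 had at least 2-fold fewer (SRSF3, SRSF6 and PNN), beside 29.7%.

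TRA2B (chr3:185632346-185655802, minus strand), which binds GAA-rich exonic enhancers, had its peaks at the start of its transcript and in intron 1. It had 8.02 peaks per 10000 for vector, 3.01 for wild-type and 5.74 for G325E, wild-type being 0.375 times vector (0.134 to 1.05). Peaks covered codons 1 to 12, all that exon 1 encodes, in every list, and no peak lay on any later codon. Coding coverage was 4.05% in vector and wild-type and 4.17% in G325E. The 5′-UTR held 3 peaks in each list by position. Intron 1 held 5 peaks for vector, 2 for wild-type and 4 for G325E.

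**Figure D4:**
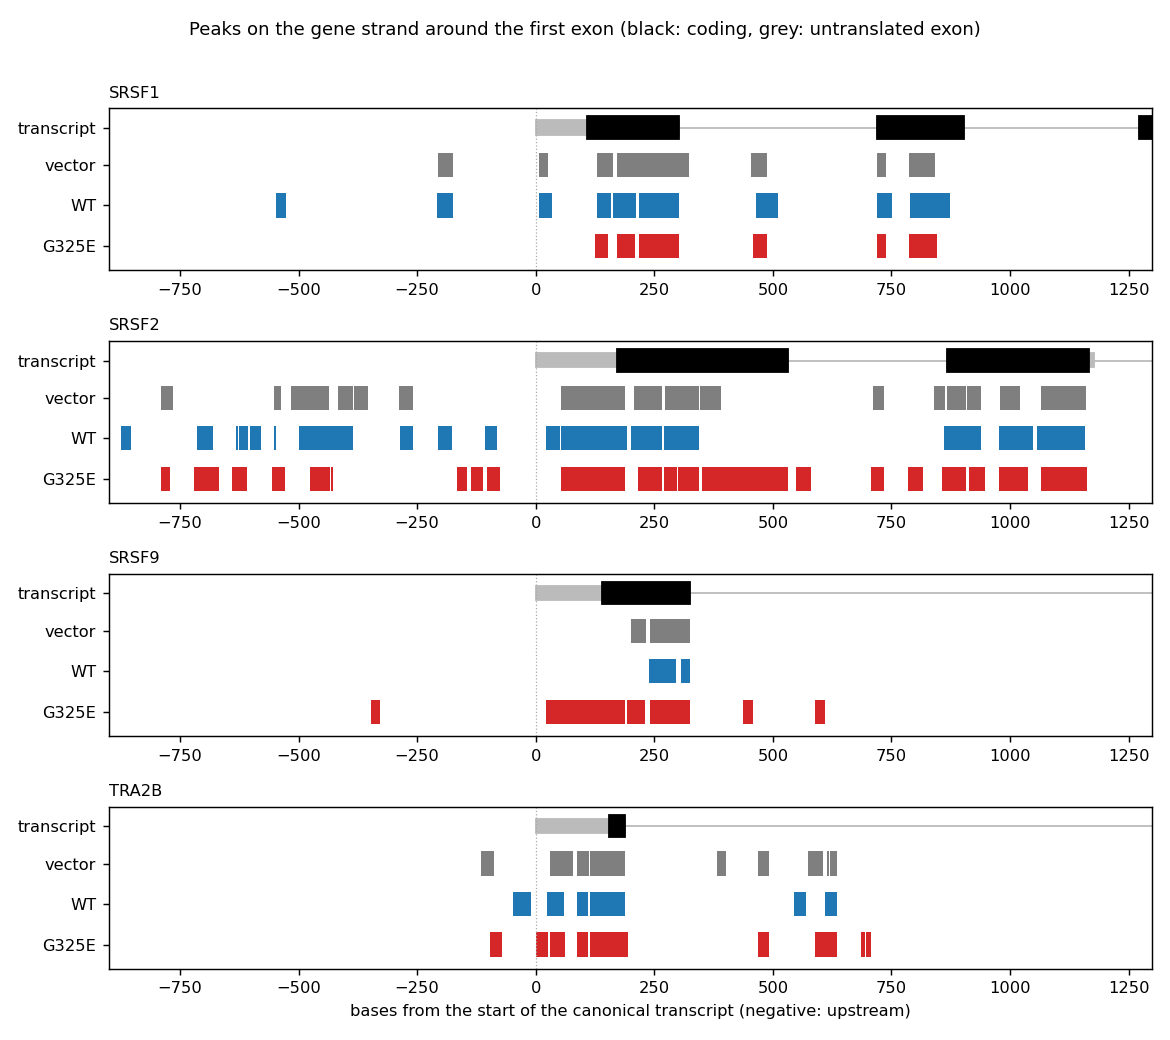
Peaks on the gene strand around the first exon of SRSF1, SRSF2, SRSF9 and TRA2B, in bases from the start of the canonical transcript (horizontal axis), with 1 row for each library. The transcript is drawn in black where coding and grey where untranslated. SRSF2 has peaks upstream of its start in all 3 libraries, and TRA2B has intron peaks from 383 to 707 bases.

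By annotation, intron peaks made up a share of the members' peaks like that of the lists as a whole. They numbered 8 of 49 in vector (16.3%, 95% Wilson interval 8.51 to 29.0%), 9 of 82 with wild-type (10.98%, 5.88 to 19.6%) and 6 of 42 with G325E (14.3%, 6.72 to 27.8%). Over all listed peaks the shares were 9.89%, 11.1% and 13.1%. TRA2B gave 11 of these 23 peaks, SRSF11 7, SRSF1 3, SRSF5 1 and SRSF7 1. By position, 4 of the SRSF11 peaks lay in or before its first exon, and the SRSF5 peak lay in coding sequence. Of the peaks on the members' canonical transcripts, 18% lay in introns for vector, 7.89% for wild-type and 21.3% for G325E. These include intron peaks of SRSF2 and SRSF9 that the lists name for the neighbours. No share by position was taken over all genes.

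Peaks touched few of the members' annotated NMD exons, and no share over all genes was taken to set beside this. GENCODE lists 34 exons inside the members' spans that touch no canonical exon, and 14 of them belong to NMD transcripts. Overlapping versions of an exon were counted separately. A gene-strand peak touched 4 of the 34 and 2 of the 14, and those 2 are overlapping versions of 1 SRSF7 exon. Its peak was 3 bases wide, at chr2:38976313-38976315 in wild-type, and covered the first bases of the 276-base version. Read on from codon 128 of SRSF7, this exon meets a stop that ends at its base 22, as printed above. No peak touched an NMD exon of SRSF2, SRSF3, SRSF6, SRSF9, SRSF11 or TRA2B, though SRSF3 and SRSF6 had peaks in wild-type alone.

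In SRSF11 the 33-base skipped exon held a 3-base wild-type peak, at chr1:70712830-70712832, and a 2-base vector peak, both ending at its last base. Read on from the exon before, it meets a stop that ends at its base 16. G325E had no peak there. In SRSF1, intron 1 held 1 peak in each list, between 153 and 207 bases past exon 1, where reading on from codon 64 meets a stop within 4 bases, so all 3 peaks lay beyond it. In TRA2B the in-frame stop ends 60 bases into intron 1, and all 11 intron peaks lay beyond it, from 194 to 518 bases past the exon. Of these 11, 7 touched an exon of ENST00000487615, an annotated retained-intron transcript. The vector and G325E peaks of the second TRA2B stretch differed by 1 base at 1 edge.

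Coding coverage sets members of different length on 1 scale. Peaks covered 17.3% of the members' 9591 coding bases for vector, 26.98% for wild-type and 14.5% for G325E, and wild-type was also the deepest library. The median over the 10 members was 14.7%, 26.6% and 11.1%, beside 3.01%, 11.6% and 4.23% over 3057 genes with a coding peak in any list. In wild-type the order from the highest was SRSF2, SRSF1, SRSF7, SRSF5, SRSF11, SRSF6, SRSF3, PNN, SRSF9 and TRA2B. SRSF5, SRSF11, SRSF6 and SRSF3, between 25.4% and 28.3%, lay within 3 percentage points of each other.

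Coding peaks of the members lay on average at 0.527 of the coding sequence for vector (36 peaks, SD 0.284), 0.594 for wild-type (60 peaks, SD 0.272) and 0.457 for G325E (31 peaks, SD 0.313). Over all genes the means were 0.493, 0.4997 and 0.394. In these pooled means the order of the libraries was the same for the members and for all genes, where vector and wild-type nearly tied. The members' means pool different genes, since SRSF3 and SRSF6 enter only from wild-type and TRA2B only from G325E. Within genes, SRSF1, SRSF2, SRSF9 and SRSF11 had the pooled order. SRSF5, at 0.739, 0.723 and 0.789 for vector, wild-type and G325E, and SRSF7, at 0.683, 0.535 and 0.655, did not. The RS domains were given no positions, so peaks on them were not counted. Counted over the whole coding sequence, arginine and serine codons made up 33.2% of the members' 3197 codons. They were 44.8% of codons under a gene-strand peak for vector, 46.9% for wild-type and 38.3% for G325E. In SRSF5 they were 71.8%, 66.7% and 73.7% of codons under a peak and 38.97% of all its codons, and in SRSF7 81.5%, 51.8% and 78.6% against 44.5%. In SRSF3 the wild-type peaks held 69.0% against 37.8%, and in SRSF6 57.1% against 41.6%. In SRSF11 they were 49.2%, 46.97% and 30.6% against 26.9%, and in PNN 30.8% and 39.5% against 25.2% in the 2 lists with peaks. These codons are unevenly spread along the genes, so the shares also follow where peaks lie. For TRA2B the share was 25% against 40.3%, from 3 of the same 12 exon 1 codons in each list. For SRSF9 the share under peaks was also below that of the whole gene in every list, with 13.2%, 16.0% and 14.04% against 21.3%. SRSF2 had 43.6%, 50.7% and 42.2% against 45.7%. SRSF1 had 33.6%, 29.8% and 12.2% against 28.6%, the last where only codons up to 107 had peaks. Repeats of arginine and serine codons are alike between SR genes, so the placement of short reads in them is uncertain.

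GC content around the members' peaks was 58.2% for vector (SD 14.7, 49 peaks), 55.8% for wild-type (SD 14.7, 82 peaks) and 65.2% for G325E (SD 13.7, 42 peaks). In each list this was below the mean of all listed peaks. The mean was highest in G325E for SRSF2, SRSF5, SRSF7, SRSF9 and SRSF11, and highest in vector for SRSF1 and TRA2B. SRSF2, by its upstream peaks, had 64.5%, 73.9% and 77.8% in the order of the libraries above, and TRA2B 70.97%, 68.8% and 66.3%.

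**Figure D5:**
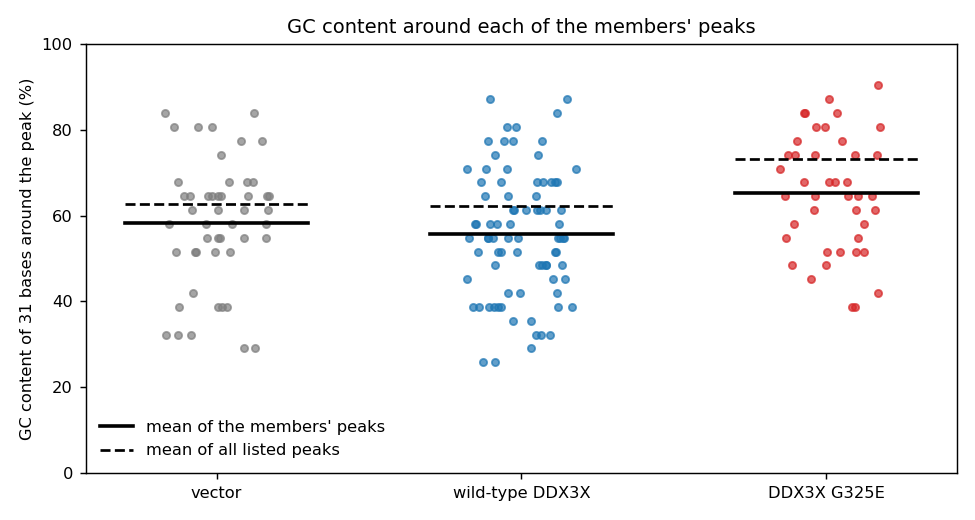
GC content of the 31 bases around each of the members' peaks (vertical axis, percent) in vector, wild-type DDX3X and G325E. Points are single peaks, solid lines their means of 58.2, 55.8 and 65.2%, and dashed lines the means of all listed peaks, 62.7, 62.3 and 73.1%.

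Members' peaks recurred between lists. Of the 49 vector peaks, 79.6% shared at least 1 base of the same strand with a wild-type peak and 57.1% with a G325E peak, beside 75.1% and 46.4% over all vector peaks. Of the 42 G325E peaks, 66.7% shared a base with vector and 73.8% with wild-type, beside 34.3% and 45.7% over all G325E peaks. Of the 82 wild-type peaks, 43.9% shared a base with vector and 34.1% with G325E, beside 40.7% and 33.6%.

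Genes that work with the members were read from 4 lists. Among 9 other SR and SR-like genes, 8 had a peak in some list. SRRM2, a large splicing coactivator, had 9, 58 and 5 peaks for vector, wild-type DDX3X and G325E, and SCAF1, an RS-rich protein, had 15, 24 and 15. From wild-type to G325E, 5 could be compared, of which 2 had at least 2-fold fewer peaks and 1 more. The latter was SRSF8, singled out after its values were seen, with 0, 0 and 10 peaks. SRSF8 arose as a copy of SRSF2, so reads placed on either gene are uncertain. Among 8 genes for other proteins of the exon junction, 6 had a peak. ACIN1 had 9, 23 and 9 and RNPS1, which binds pinin, had 7, 22 and 5. Of the 5 compared from wild-type to G325E, 3 had at least 2-fold fewer peaks and 0 more.

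Of 7 genes for SR protein kinases and the importer TNPO3, 3 had a peak, and CLK1, CLK3, CLK4 and TNPO3 had none. SRPK2 had 0, 14 and 0 peaks and SRPK1 4, 7 and 0, and 2 of the 3 compared had at least 2-fold fewer in G325E than in wild-type. Among the NMD factors, UPF3B had 2, 6 and 0 peaks for vector, wild-type DDX3X and G325E. It was the only 1 with enough peaks to be compared from wild-type to G325E, and it had at least 2-fold fewer in G325E. Over all genes tested from wild-type to G325E, 27.9% had at least 2-fold fewer peaks and 26.1% at least 2-fold more. These shares stand beside the counts of every related list, and each list has too few genes compared to be set apart from them.

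The lists were checked against the labelled cells. DDX3X had 0, 32 and 9 peaks in vector, wild-type and G325E. The labels call the HEK293T cells neuronal. Of 12 neuronal markers, 3 had peaks in every list (NEFL, NEFM and TUBB3, summing to 31, 35 and 51) and 9, RBFOX3, MAP2, SYN1 and SNAP25 among them, had none. Of 8 epithelial and embryonic kidney markers, 4 had a peak in some list, and PAX2, LHX1, CDH1 and EPCAM had none. VIM had 18, 20 and 19, CDH2 0, 11 and 5, KRT18 0, 11 and 0, and KRT8 0, 1 and 0. Peaks under 10 bases, the least width that the study states, made up 10.8 to 11.8% of each list and 4, 12 and 4 of the members' peaks.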

How the data were processed

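The deposited lists give, for each library, the start and end of every ribosome peak on hg19 (NCBI Build 37), its strand and its HOMER annotation, with no height. Per the study's methods and the submitters' processing notes, the authors trimmed adapters with cutadapt, aligned reads with BWA 0.5.5, removed duplicates and called peaks in each sample on its own from a coverage cut-off. Peaks weak enough to miss the cut-off are therefore read as 0, and a wide pile-up can be split.

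RefSeq ids in the annotation were matched to genes through the lists and RefSeq's gene table: 45661 of the 45926 peaks with an id matched, and 1158 of 46819 peaks used the gene name. Positions were set on canonical transcripts of GENCODE release 44 lifted to GRCh37. Sequences came from GRCh37, and no protein sequence was used. Peaks of no length (163 to 272 a list) were kept as 1 base. Numbers were scaled to each list's total, with no pseudocount, and a gene was called at 2-fold from at least 5 peaks over the pair of lists. Shares have 95% Wilson intervals, and a count of 0 allows 3 peaks. Scripts used Python 3.11.15, numpy 2.4.6, pandas 2.3.3 and matplotlib 3.10.9. The 2-fold rule and the GC weighting were tried on simulated data. Simulated counts for the 2-fold rule were far above the members' peak numbers, so calls at those numbers were not checked. All 10 members are named, and up to 2 genes of each related list, those with most peaks over the 3 lists, except that 1 result is not reported here. The members and lists were chosen with earlier results of these data known.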

Additional observations from a re-analysis of the deposited data

How the results depend on the processing

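No paired analysis was possible because each construct has 1 library and the labels give no replicate numbers. Of 141 alternative values, 114 stayed within the counting interval of the value reported (for means, within a 95% interval over peaks, and for counts of members, within 1.5 times), 26 moved and 1 reversed. The log2 ratio of the members' share in G325E to wild-type was below 0 under 11 of 12 alternatives, from -0.94 to 0.019, the last with GC classes weighted. Against vector it was below 0 under all 12, from -1.02 to -0.12. For wild-type against vector it ran from -0.22 to 0.06.

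The G325E share moved from 0.268% to 0.192% of bases under peaks, 0.377% of exon-class peaks, 0.370% with GC classes weighted and 0.437% over the 1438 genes with a peak in all lists, where the wild-type share was 0.565%. With RefSeq ids matched through the lists alone, an alternative added after seeing the data that drops SRSF5 and most SRSF2 peaks, the shares were 0.330%, 0.326% and 0.185% in vector, wild-type and G325E. Intron peaks held 8.35% of the members' peak bases in vector and 4.82% in wild-type. With each list cut to its 11219 longest peaks, coding coverage was 23.9% in wild-type and 13.6% in G325E. GC content was 52.0% and 60.5% over a wider window in wild-type and G325E, and 50.9% and 60.7% for coding peaks alone.

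Members with at least 2-fold fewer peaks in G325E than in wild-type went from 3 to 6 with median-ratio scaling (33.5% of all genes under that scaling), to 5 by bases (27.7%) and to 0 with genes at 0 set to the floor of 3 (15.7%). Those with fewer in G325E than in vector went from 2 to 0 with median-ratio scaling (17.4%) and to 1 by position (24.9%), where 3 had more in G325E than in wild-type (23.8%). Those with fewer in wild-type than in vector went from 1 to 0 with median-ratio scaling (5.73%) or without intron peaks (18.7%) and to 2 by position (18.4%), and those with more went from 2 to 0 at the floor (8.71%). For these counts the floor and position settings were, like the minimum width for the shares, added after seeing the data. Every 95% interval of a single gene's ratio that the text gives spans more than 4-fold, so the number of peaks limits single-gene comparisons. The cause of these changes was not tested.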

Other observations

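Some of the members' peaks were bounded by an exon edge. Shares over all listed peaks were not taken for the counts that follow, so these do not set the members apart. Of 173 peaks, 26 started 1 base inside the start of a canonical exon and 26 ended at the last base of one, 51 in all having at least 1 such edge. The members' peaks on the opposite strand were 2 for vector, 7 for wild-type and 1 for G325E. Edges were identical in both lists for 7 of the members' peaks between vector and wild-type, 5 between G325E and wild-type and 3 between G325E and vector.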
